A study of Mus musculus with 6 samples.

Results

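Adipokines are proteins that fat cells secrete into the circulation or the tissue around them. The accessible chromatin around 10 adipokine genes was read from ATAC-seq peak lists of cultured mouse adipocytes: Adipoq, Lep, Retn, Cfd, Rbp4, Nampt, Rarres2, Apln, Sfrp5 and Nrg4, out of 21827 protein-coding genes in the annotation. The genes were chosen by name, and a peak was assigned to a gene when its summit lay within 50 kb of the gene body. A promoter peak was one with its summit within 1 kb of an annotated start site. After peaks of the 6 lists that overlapped were merged, 171 of 194496 regions fell in these windows, and 0 regions were shared by 2 of the genes.

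The 6 libraries came from stromal vascular fraction cells of male wild-type C57BL/6J mice aged 3 to 4 weeks, differentiated for 7 days, with 2 libraries in each of 3 conditions. Beige and white libraries were both from the inguinal depot, whereas brown libraries were from brown adipose tissue cells that were given the beige medium. The labels give 5 µg/ml insulin and 0.5 mM IBMX for every culture; the beige medium held 5 µM dexamethasone, 1 nM T3 and 1 µM rosiglitazone, and the white medium held 1 µM dexamethasone and neither T3 nor rosiglitazone. Dexamethasone and IBMX were later withdrawn in all cultures, and insulin, with T3 and rosiglitazone where present, was kept. Thus beige and white cells shared a depot and differed in medium, and beige and brown cells shared a medium and differed in depot, so white and brown differed in both. The study's text describes the beige and white libraries but not the brown ones. Whether the brown libraries were prepared alongside the others is not stated. In comparisons with brown, depot therefore cannot be told apart from differences in preparation. The cultures are mixed stromal cells grown toward adipocytes rather than sorted fat cells, and in such bulk samples fewer cells of a type cannot be told apart from less open chromatin per cell.

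Adiponectin, leptin and resistin are circulating hormones of fat, and adipsin, retinol binding protein 4 and chemerin are abundant secreted proteins of mature adipocytes. In differentiation, PPARG with RXR and the C/EBP factors bind promoters and distal enhancers of such genes, and rosiglitazone is a ligand of PPARG. ATAC-seq marks DNA that a transposase can reach, so a peak shows an open stretch and does not measure transcription of the gene beside it.

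The lists held 109143 to 127490 peaks each, with a median fold enrichment over the local background of 3.99 and 4.12 in the white libraries and between 4.42 and 5.04 in the other 4. Fold enrichment was therefore compared only as a percentile within its own library, with 100 the highest peak. Raw −log10 q values are given as each library's own peak score and are not on a common scale between libraries. With 2 libraries against 2, no exact two-sided permutation test can give a p below 0.333, so values of every library are given without tests. The 2 libraries of a condition are called apart from the 2 of another only when their percentiles do not overlap. Promoters of all 7 adipocyte markers checked, among them Pparg, Cebpa, Fabp4 and Plin1, had a peak in every library. So did 4 of 6 progenitor markers, 4 of 6 endothelial markers and 2 of 6 macrophage markers, while Ptprc, Itgam and Csf1r had none in any library. The Ucp1 promoter had a peak only in the brown libraries, at the 9.12 and 4.23 percentiles, and the beige libraries thus lacked a peak at this defining gene. Of the 5 brown depot markers checked, 3 had a promoter peak in every library, and they followed no common order. Lhx8 was highest in brown (48.5 and 55.8), and Prdm16 was highest in white (48.0 and 31.1, against 15.2 and 11.3 in brown). Ebf2 ranged from 68.1 to 91.9, and Zic1 had peaks in both brown libraries and in beige 2.

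Promoter peaks were present in all 6 libraries at 7 of the 10 genes, against 62.0% of all protein-coding genes. The exceptions were Lep, with a weak peak in 1 library, Sfrp5, with weak peaks in 2, and Cfd, with none, a state found at 28.6% of all genes. Over the 7 open promoters the mean percentile was 63.6 ± 1.27 in beige, 66.0 ± 1.75 in white and 71.3 ± 2.23 in brown (SD, n = 2 libraries each). The order did not hold under 2 other settings: with promoters reaching 3 kb, which took in 8 genes, the means were 70.7 in beige, 67.1 in white and 69.8 in brown, and after peaks of q 0.00001 or more were dropped, which left 6 genes, the means came to 66.1, 64.6 and 65.3. The same means over all 13532 genes with a promoter peak in every library were 82.1 ± 0.69, 80.6 ± 2.04 and 83.1 ± 0.744. On average the adipokine promoters sat lower within the lists than promoters in general. Adipoq (35.0) and Rarres2 (33.3) were the lowest of the 7, whereas Nampt (92.1) and Nrg4 (90.4) were the highest.

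**Figure D1:**
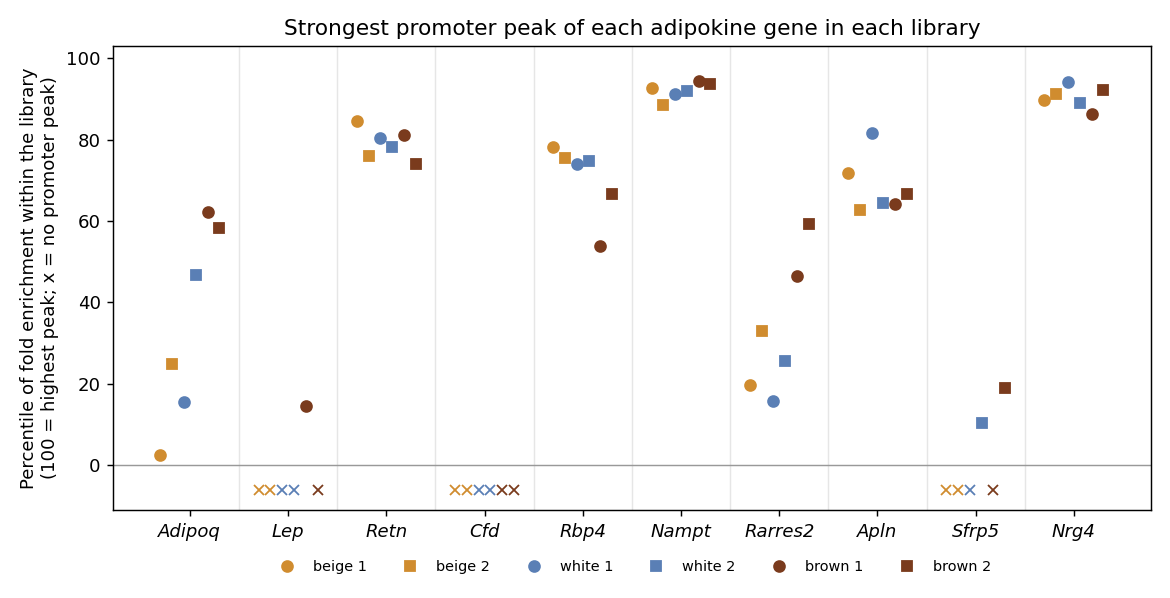
Percentile of fold enrichment within the library (vertical axis) of the strongest promoter peak of each gene (horizontal axis), with 1 point per library and a cross where the library had no promoter peak. Adipoq and Rarres2 sit higher in both brown libraries than in the other 4, Rbp4 sits lower in both brown libraries, and Lep, Cfd and Sfrp5 are mostly crosses.

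The promoters divided by their CpG content, measured as the observed over expected CpG ratio from 500 bp before to 500 bp after the start site. Adipoq, Lep, Retn, Cfd and Rarres2 had ratios between 0.143 and 0.378, and 3 of these 5 were open in every library, against 12.8% of the genes with a ratio under 0.4. Rbp4, Nampt, Apln, Sfrp5 and Nrg4 had ratios between 0.663 and 0.899, and 4 of these 5 were open in every library, against 94.7% of the genes with a ratio of 0.6 or more. Sfrp5 was the exception among the CpG-rich promoters. Genes open in every library had a median promoter percentile of 72.5 at ratios under 0.4 and of 89.8 at 0.6 or more. Retn (79.0), Nampt (92.1) and Nrg4 (90.4) were above the median of their class. Adipoq (35.0), Rarres2 (33.3), Rbp4 (70.5) and Apln (68.6) were below it.

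Adipoq encodes adiponectin, an insulin-sensitising hormone of adipocytes. The gene lies on the forward strand at chr16:23146536-23158028 (mm10). Its promoter peak stood at the 2.54 and 24.8 percentiles in the beige libraries, 15.6 and 46.7 in the white and 62.1 and 58.2 in the brown. Both brown libraries were thus above all 4 inguinal libraries, while beige and white overlapped. The −log10 q of the peak was 3.22 and 13.4 in beige, 4.88 and 10.7 in white, and 27.5 and 18.2 in brown. As percentiles of −log10 q within each library, these were 5.86 and 52.0, 24.5 and 55.9, and 71.7 and 68.1, so brown was again highest. The summit lay between -108 and -97 bp from the start site in the inguinal libraries and at -64 and -52 bp in the brown ones. The peak was 173 to 321 bp wide in the inguinal libraries and 351 and 437 bp wide in brown. The 150 bases before the start site (chr16:23146386-23146535, forward strand, GRCm38) cover all of these summits, and none of the motifs searched below matched in them:
Adipoq promoter: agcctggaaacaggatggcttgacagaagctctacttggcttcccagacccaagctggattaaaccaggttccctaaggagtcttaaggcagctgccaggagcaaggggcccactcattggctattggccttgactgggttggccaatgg

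Of 19 regions around Adipoq, 9 had a peak in all 6 libraries. The strongest, at -18736 bp, was the promoter of Rfc4, a replication factor gene, with percentiles of 93.8 to 97.3. Among regions away from other genes' promoters, the one at -9775 bp was highest in the white libraries, at 86.0 and 90.9 against 78.4 and 81.8 in beige and 85.4 and 82.8 in brown. The one at 13348 bp, beyond the 3' end of the gene, showed the opposite order, with 45.0 and 57.3 in white, 78.4 and 74.3 in beige and 84.1 and 77.8 in brown. The one at -2002 bp also ranked lowest in white, at 55.8 and 56.4, but the nearest other value, 59.2 in 1 brown library, was close to these.

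A pair of regions at Adipoq were held by both libraries of some conditions and by neither library of the rest. An intronic region at 5060 bp (chr16:23151478-23151714) had a peak in both beige and both brown libraries and in neither white library, with −log10 q of 16.0 and 6.99 in beige and 6.53 and 2.37 in brown. A region upstream at -10905 bp (chr16:23135530-23135748) had a peak in the 2 beige libraries alone, with −log10 q of 11.8 and 19.7. The sequences at these summits, 75 bases to each side, are shown because no other region near Adipoq was of this kind (chr16:23151521-23151671 and chr16:23135556-23135706, forward strand):
Adipoq +5060: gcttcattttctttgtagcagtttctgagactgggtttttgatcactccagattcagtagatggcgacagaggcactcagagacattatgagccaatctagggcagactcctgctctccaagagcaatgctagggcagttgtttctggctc
Adipoq -10905: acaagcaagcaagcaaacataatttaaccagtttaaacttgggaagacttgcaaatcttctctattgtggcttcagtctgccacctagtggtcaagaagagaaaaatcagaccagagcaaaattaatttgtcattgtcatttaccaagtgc

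Lep encodes leptin, the satiety hormone that fat releases in proportion to its stores, and lies on the forward strand at chr6:29060220-29073877. Its promoter had a peak in only 1 library, brown 1, at the 14.5 percentile, with −log10 q of 3.11 and a summit at -328 bp. The other 5 libraries had none within 1 kb of the start. The bases just before the start site nevertheless hold an exact match to the C/EBP palindrome TTGCGCAA, here in capitals (chr6:29060070-29060219, forward strand), in a stretch where no library had a summit:
Lep promoter: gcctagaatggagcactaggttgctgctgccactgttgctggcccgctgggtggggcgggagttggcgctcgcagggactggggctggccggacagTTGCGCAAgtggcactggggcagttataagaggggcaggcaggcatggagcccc

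The open chromatin at Lep lay at a distance. Of its 17 regions, 7 had a peak in every library, and the strongest, at 57418 bp, ranked between the 80.8 and 95.1 percentiles. Of the 5 upstream regions open in every library, 4 lay from -36851 to -28208 bp. Those at -36851 and -35896 bp lay in exons of another gene, Gm3294. The one at -28208 bp was lowest in white, at 27.9 and 41.6, against 53.0 and 65.8 in beige and 73.7 and 77.2 in brown. Beside it, the region at -27626 bp (chr6:29032426-29032719) had a peak in both beige and both brown libraries and in neither white library, with −log10 q of 16.2, 12.7, 23.5 and 5.30. In the same cluster the region at -28766 bp ran the other way by a small margin, with 83.6 and 82.0 in white and 70.2 to 81.9 in the other 4. A region at -10151 bp had peaks in both beige libraries and brown 1 only, at −log10 q of 2.65, 10.5 and 3.45. Around the summit at -27626 bp, held by both beige and both brown libraries and neither white one, none of the motifs matched (chr6:29032519-29032669, forward strand):
Lep -27626: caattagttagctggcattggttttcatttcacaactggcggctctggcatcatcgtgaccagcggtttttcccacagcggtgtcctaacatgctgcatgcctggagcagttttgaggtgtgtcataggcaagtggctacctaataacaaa

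**Figure D2:**
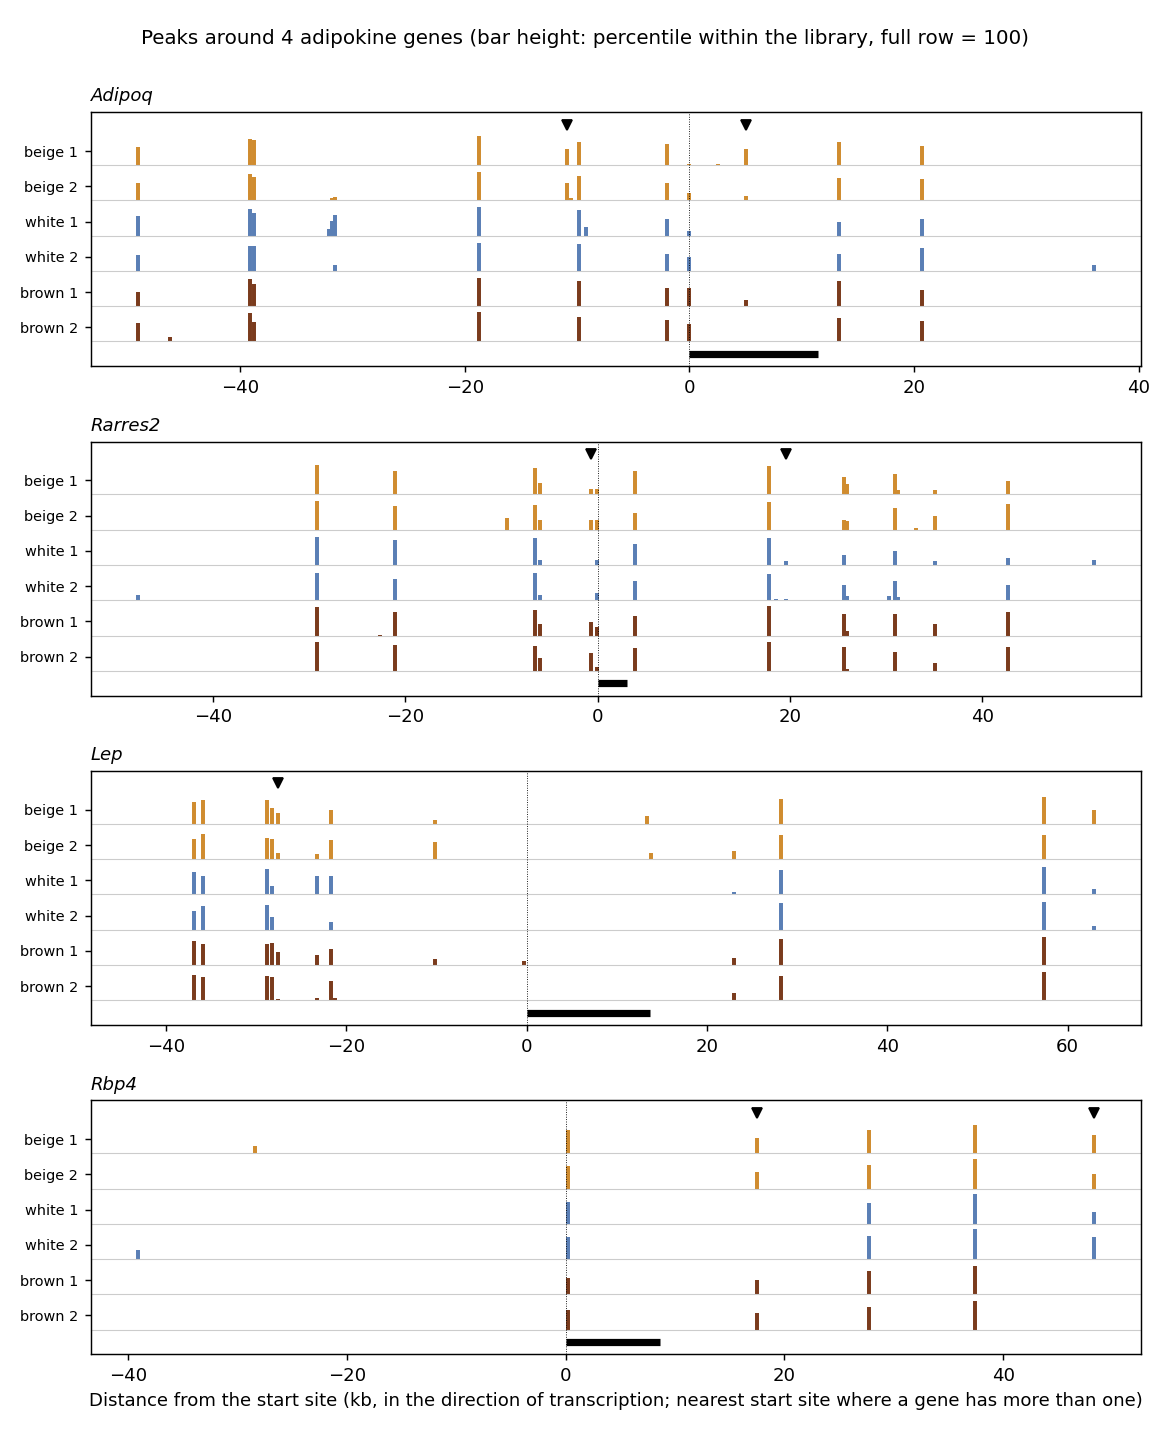
Regions around Adipoq, Rarres2, Lep and Rbp4 by distance from the start site in kb (horizontal axis), 1 row per library, with bar height showing the percentile within the library and black bars the gene. Triangles mark regions held by both libraries of some conditions and by neither library of the rest, such as the Rarres2 region at -688 bp and the Lep region at -27626 bp, which are empty in both white rows.

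Retn encodes resistin, a hormone that opposes insulin in mice, and lies on the forward strand at chr8:3655770-3660110. Its promoter peak was present throughout and averaged the 79.0 percentile, against a median of 72.5 for CpG-poor genes open in every library. It stood at 84.6 and 76.0 in beige, 80.4 and 78.0 in white and 81.1 and 74.0 in brown. The conditions overlapped. The summits lay well upstream, between -846 and -660 bp. In the surrounding window, 3 regions at promoters of other genes were lowest in white: at -34349 bp (Pet100 and Xab2), at -24651 bp (Stxbp2) and at 20692 bp (Trappc5). The widest gap was at -24651 bp, with 52.1 and 56.8 in white, 81.2 and 81.5 in beige and 81.0 and 62.5 in brown. A peak at 50127 bp, at the edge of the window, was found in the 2 white libraries alone, with −log10 q of 6.33 and 2.23.

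Cfd encodes adipsin, the complement factor D protease, and lies on the forward strand at chr10:79890853-79892655. No library had a promoter peak. The nearest regions were at -1297 bp, found in beige 2 alone at −log10 q of 7.31, and at 2095 bp, just past the end of this short gene, open in every library. That second region ranked at 64.0 and 73.8 in beige, 64.7 and 34.9 in white and 51.7 and 53.0 in brown, so beige was above brown and white overlapped both. A region at -7007 bp was highest in beige, at 90.8 and 88.4, against 72.5 and 78.7 in white and 79.5 and 70.5 in brown. The locus is dense with open chromatin: its 25 regions, 24.6 per 100 kb, put it at the 97.1 percentile of all gene windows, and 9 of them lay at promoters of other genes. A pair of weak regions in an intron of Arid3a were each held by 1 condition, at 37699 bp by beige (−log10 q of 8.07 and 15.6) and at 42085 bp by white (12.9 and 3.88).

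Rbp4 encodes the plasma carrier of retinol and lies on the reverse strand at chr19:38116629-38125281. Its promoter peak showed the opposite order to that of Adipoq, with percentiles of 78.2 and 75.5 in beige, 74.1 and 74.7 in white and 53.7 and 66.7 in brown. Both brown libraries were below the other 4, and beige lay above white by a narrow margin. The window was sparse, with 7 regions. The strongest, an intergenic region at 37456 bp, ranked at 99.0 and 99.3 in white and from 94.0 to 97.3 in the other 4 libraries. Among the 7, 2 were held by both libraries of some conditions and by neither library of the rest. One at 48276 bp (chr19:38076240-38076663) had peaks in the 4 inguinal libraries and in neither brown library, with −log10 q of 10.3 and 7.98 in beige and 5.78 and 11.8 in white. The other, at 17444 bp (chr19:38107170-38107545), had peaks in beige (8.17 and 12.9) and brown (8.72 and 9.75) but in neither white library. Its summit lies in a coding exon of Ffar4, the neighbouring gene for a fatty acid receptor, so the region is as much part of that gene as of the Rbp4 surroundings. The first sequence below covers the summits of beige 1 and white 2 but not those of beige 2 and white 1. In the sequences at the 48276 and 17444 bp summits, read on the reverse strand, capitals mark an ETS match in the first and a nuclear factor I match in the second (chr19:38076477-38076627 and chr19:38107309-38107459):
Rbp4 +48276: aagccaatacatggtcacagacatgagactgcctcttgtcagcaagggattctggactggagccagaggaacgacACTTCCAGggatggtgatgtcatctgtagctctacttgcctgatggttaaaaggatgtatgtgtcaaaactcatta
Rbp4 +17444: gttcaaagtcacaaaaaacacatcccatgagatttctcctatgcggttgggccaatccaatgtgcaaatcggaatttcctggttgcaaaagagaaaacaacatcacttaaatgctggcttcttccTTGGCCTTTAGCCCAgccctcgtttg

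Nampt encodes the enzyme of NAD salvage that is also secreted as visfatin, and lies on the forward strand at chr12:32819545-32853349. Its CpG-rich promoter was the highest ranked of the 10, with percentiles of 92.7 and 88.4 in beige, 91.3 and 92.0 in white and 94.5 and 93.6 in brown. Both brown libraries were above the other 4 by a narrow margin. Downstream of the gene, the intergenic region at 77322 bp was highest in beige, at 98.3 and 99.6, against 82.0 and 91.6 in white and 85.4 and 91.6 in brown. At 57827 bp white was lowest, at 72.4 and 78.2 against 84.1 to 94.1, and at 64296 bp white was highest, at 92.2 and 92.9 against 85.4 to 89.4. No Nampt region was held by both libraries of some conditions and neither of the rest.

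Rarres2 encodes chemerin, a ligand that attracts leukocytes and acts on adipocytes through Cmklr1, and lies on the reverse strand at chr6:48569696-48572789. A promoter region at -470 bp had a peak in white 2, the only white library with 2 promoter peaks. The other 2 promoter regions differed from each other. The one at the start site, at -39 bp, was open in every library, at 17.1 and 32.2 in beige, 15.8 and 25.5 in white and 29.3 and 11.3 in brown, and the conditions overlapped. The one at -688 bp (chr6:48573353-48573622) had a peak in both beige and both brown libraries and in neither white library. Its −log10 q was 8.20 and 14.3 in beige and 19.1 and 21.4 in brown, and its percentiles were 19.8, 32.9, 46.4 and 59.3. The higher rank of brown over the other 4 libraries in the plot of promoter percentiles came from the region at -688 bp. The white values in that plot are those of the region at the start site. The sequence around its summit is shown because it was the only promoter region held by both libraries of some conditions and neither of the rest. Capitals mark a C/EBP match, TTGCTCAA, and a match with 2 mismatches to the PPAR DR1 element, GGGTCAGGGGTCA (chr6:48573402-48573552, reverse strand):
Rarres2 -688: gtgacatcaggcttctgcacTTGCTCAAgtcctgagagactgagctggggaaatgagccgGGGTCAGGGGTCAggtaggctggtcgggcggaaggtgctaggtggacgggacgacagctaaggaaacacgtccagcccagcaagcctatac

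Of the 24 regions around Rarres2, 10 were open in every library and 5 lay at promoters of other genes. At -5995 bp, an intergenic region was lowest in white, at 17.6 and 16.9, against 36.9 and 33.4 in beige and 38.7 and 43.5 in brown, while the stronger neighbour at -6541 bp was slightly higher in white (90.4 and 90.8) than in the other 4 (81.7 to 89.9). A region at 19634 bp was found in white alone, with −log10 q of 5.25 and 3.71.

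Apln encodes apelin, a peptide ligand of the receptor Aplnr, and lies on the reverse strand at chrX:48025146-48034853. Its strongest promoter peak ranked at 71.7 and 62.8 in beige, 81.6 and 64.5 in white and 64.3 and 66.5 in brown, and the conditions overlapped. Of the 2 promoter regions, the one at 258 bp was level, from 59.7 to 71.7, whereas the one at 996 bp, just inside the 1 kb limit, was lower in brown, at 29.2 and 55.3 against 60.7 to 81.6. Further downstream at 14710 bp the order was beige, white, brown without overlap, with 80.8 and 76.9, then 62.8 and 74.2, then 43.5 and 57.7. Of the 16 Apln regions, 11 were open in every library, none lay at another gene's promoter, and none was held by both libraries of some conditions and neither of the rest.

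Nrg4 encodes neuregulin 4, an ERBB receptor ligand known as a secreted product of brown fat, and lies on the reverse strand at chr9:55220222-55326844. Both of its annotated start sites were open in every library, and the best promoter peak ranked from 86.3 to 94.1 with the conditions overlapping. The outer start site shares its region, at 83.0 to 94.1, with the promoter of Tmem266. The inner start site, whose region at -108 bp belongs to Nrg4 alone, was lowest in white, at 72.7 and 77.0, against 86.5 and 91.2 in beige and 83.1 and 92.1 in brown. Its −log10 q was 12.0 and 13.6 in white and 26.1 to 52.5 in the other 4. White scores were also lower at the Nampt promoter (86.2 and 64.7 against 168 to 221), where percentiles lay from 88.4 to 94.5. The gap in −log10 q at Nrg4 is thus not comparable between libraries. An intronic region at 32874 bp was also lowest by percentile in white, with 13.2 and 38.8 in white, 60.7 and 56.7 in beige and 69.3 and 68.2 in brown. So, by a small margin, was the intronic region at -12803 bp from the inner start, with 84.7 and 82.9 against 85.1 to 92.6. The intronic region at 27858 bp ran the other way, with 85.0 and 85.8 in white, 63.4 and 68.6 in beige and 79.7 and 80.3 in brown. The 150 bases before the inner start site are shown as the promoter stretch that ranked lower in white without being absent. Capitals mark a match with 2 mismatches to the thyroid hormone receptor DR4 element (chr9:55283626-55283775, reverse strand):
Nrg4 inner promoter: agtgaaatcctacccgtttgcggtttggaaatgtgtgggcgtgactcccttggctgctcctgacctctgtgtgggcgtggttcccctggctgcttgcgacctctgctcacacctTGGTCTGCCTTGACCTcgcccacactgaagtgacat

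Sfrp5 encodes a secreted inhibitor of Wnt ligands and lies on the reverse strand at chr19:42197971-42202252. Its promoter had weak peaks in white 2 and brown 2 only, at the 10.5 and 18.9 percentiles and −log10 q of 3.55 and 5.04, with summits at 596 and 567 bp. No condition had the peak in both libraries. Within the neighbouring gene Zfyve27, the region at 11556 bp was open in every library and far higher in beige, at 88.6 and 92.4, than in white (45.1 and 60.4) or brown (46.6 and 65.3). A second region in Zfyve27, at 19380 bp, was found in the beige libraries alone, with −log10 q of 3.28 and 13.2.

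Across the 10 genes, 85 of 171 regions (49.7%) had a peak in all 6 libraries, against 30.2% of all merged regions and 32.4% of the regions within 50 kb of any protein-coding gene. Another 39 (22.8%) were found in 1 library alone, against 37.2%. The 10 windows held a median of 14.5 regions per 100 kb, against 11.5 over all genes. Regions held by beige and brown but not white numbered 4 (2.34%, against 1.25%), 1 each at Adipoq, Lep, Rbp4 and Rarres2, and 17.2% of all gene windows held at least 1 such region. This count rested on both white libraries being without a peak: it was 11 without white 1 and 10 without white 2. Regions held by beige and white but not brown numbered 1 (0.585%, against 1.16%), by beige alone 3 (1.75%, against 1.94%), by white alone 3 (1.75%, against 1.22%), by brown alone 0 (against 0.878%) and by white and brown but not beige 0 (against 0.243%). These classes held 0 to 4 regions each, near their shares in the whole lists.

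**Figure D3:**
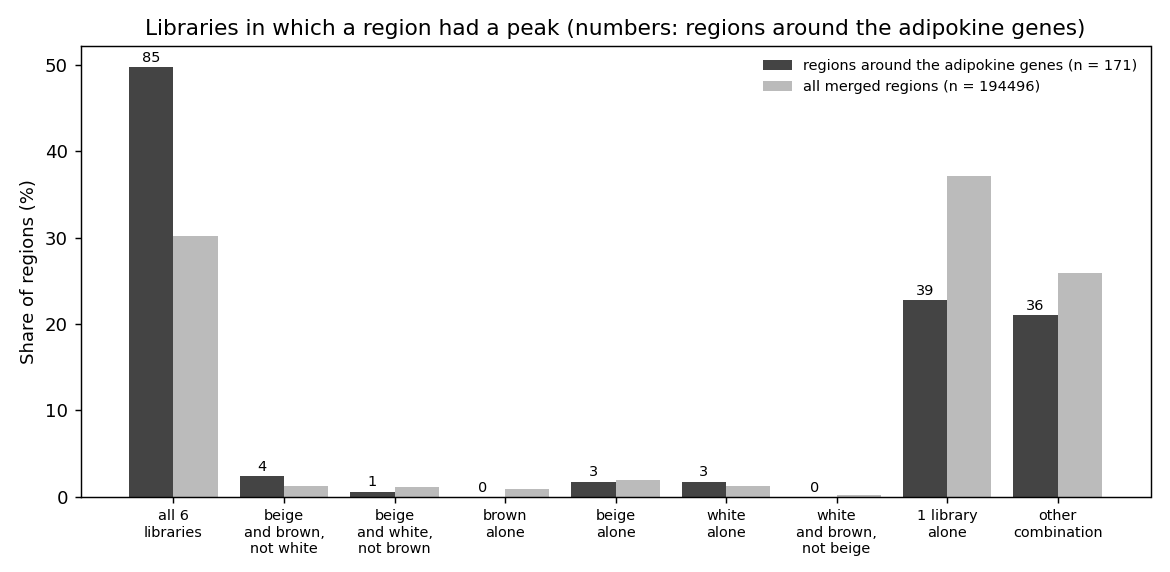
Share of regions in percent (vertical axis) by the libraries that held a peak (horizontal axis), for the 171 regions around the adipokine genes and all 194496 merged regions. Regions open in all 6 libraries make up 49.7% around the adipokine genes and 30.2% of all merged regions, and the classes of 1 or 2 conditions are small in both.

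**Figure D4:**
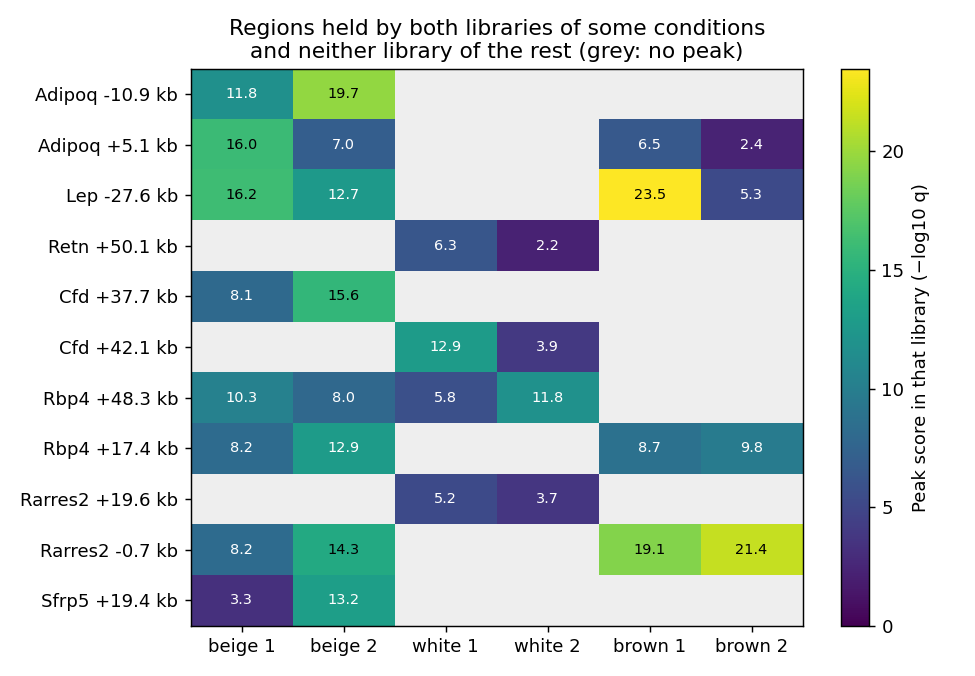
Peak score (−log10 q, colour and printed value) in each library (columns) for the 11 regions held by both libraries of some conditions and neither library of the rest (rows, gene and distance from the start site in kb), with grey where the library had no peak. The 4 regions shared by beige and brown include the highest values, 23.5 at Lep and 21.4 at Rarres2, and the 3 white regions stay at or below 12.9. Scores are each library's own and are not on a common scale between libraries.

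Among the 85 regions open in all 6 libraries, the conditions were compared by rank. Both beige libraries were above both white at 29 (34.1%, against 25.8% of all 58714 such regions) and both white above both beige at 15 (17.6%, against 22.1%). Brown was above white at 31 (36.5%, against 22.7%) and white above brown at 15 (17.6%, against 23.9%). Beige was above brown at 20 (23.5%, against 27.3%) and brown above beige at 23 (27.1%, against 24.0%). In a count added after these values were seen, both white libraries were below all 4 others at 19 regions (22.4%, against 12.4%) and above all 4 at 8 (9.41%, against 12.3%). Of the 54 regions away from every protein-coding promoter, white was lowest at 9 (16.7%, against 10.6%) and highest at 8 (14.8%, against 12.9%). When peaks were ranked by −log10 q, white was lowest at 21 of the 85 regions, 15 of them among the 19, against 13.4% of all such regions, and highest at 6, against 14.1%. The white libraries also had the lowest median fold enrichment, and the part of that difference in these ranks was not tested.

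**Figure D5:**
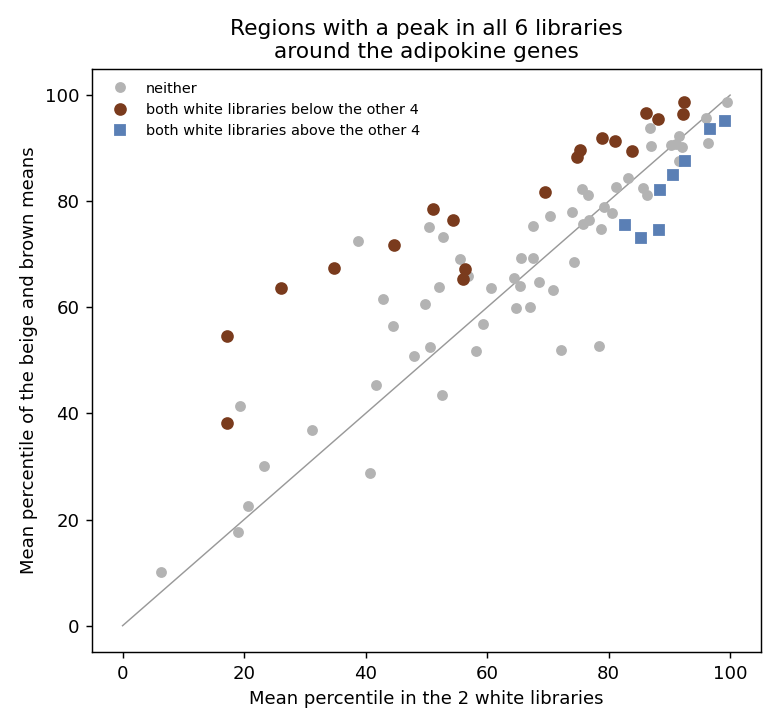
Mean percentile in the 2 white libraries (horizontal axis) against the mean of the beige and brown means (vertical axis) for the 85 regions open in all 6 libraries, with the line of equality. The 19 regions where both white libraries rank below the other 4 lie above the line, at white means of 17.2 to 92.5, and the 8 where both rank above lie below it, at 82.8 to 99.1.

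At the 7 promoters open in every library, most members followed no common order. Brown was above beige at 3 (Adipoq, Nampt and Rarres2), against 33.4% of the 13532 genes, and above white at the same 3, against 34.8%. Beige was above white at 1, Rbp4, against 28.6%, and above brown at 1, again Rbp4, against 17.3%. White was above brown at 1, also Rbp4, against 14.9%, and above beige at 0, against 19.8%. With −log10 q as the rank, Adipoq and Rarres2 stayed higher in brown than in beige and white, and Rbp4 stayed lower in brown than in both. Retn was then also lower in brown than in both, Nrg4 was higher in white than in both, Nampt was lower in white than in both, and Apln was lower in brown than in beige. The white values for Nrg4 come from its outer start site, whose region is shared with the promoter of Tmem266. Its inner start site was lowest in white by fold enrichment. Rbp4 no longer separated beige from white, and Nampt no longer separated brown from beige.

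The genes whose promoter percentiles ran closest to those of the 3 widest-ranging members were found by the mean absolute difference over the 6 libraries, with an absent peak set to 0. For Adipoq these were Npw (7.31 percentile points) and Odf3l1 (7.95), for Rarres2 they were Amer2 (6.05) and Zfp651 (6.09), and for Rbp4 Zfp931 was named (2.52).

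Motif matches were counted within 100 bp of the summit on both strands and set beside the share in all merged regions. The PPAR DR1 element (AGGTCANAGGTCA, up to 2 mismatches) matched in 4 of 171 regions (2.34%, exact 95% binomial interval 0.641 to 5.88), against 3.62%. Of these 4, the region at -688 bp of Rarres2 was the one shared by beige and brown, and the others lay at Adipoq -31778, Rarres2 42284 and Nrg4 37022 bp. The C/EBP palindrome TTGCGCAA with up to 1 mismatch matched in 13 (7.60%, 4.11 to 12.6), against 5.76%, and AP-1 (TGANTCA, exact) in 28 (16.4%, 11.2 to 22.8), against 21.2%. The ETS motif (CNGGAAGT, exact) matched in 9 (5.26%, 2.43 to 9.76), against 5.04%, and the glucocorticoid receptor element (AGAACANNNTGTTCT, up to 2 mismatches) in 4 (2.34%, 0.641 to 5.88), against 1.72%. DR4 (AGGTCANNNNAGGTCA, up to 2 mismatches) matched in 4 (2.34%, against 2.85%), nuclear factor I (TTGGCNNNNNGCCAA, up to 1 mismatch) in 1 (0.585%, against 1.51%), the EBF motif (TCCCNNGGGA, exact) in 5 (2.92%, against 1.39%) and the cAMP response element (TGACGTCA, exact) in 3 (1.75%, against 0.652%). The intervals, which cover counting error only, all held the share of the whole set for the first 5 motifs.

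The receptors and partners of these ligands were read at their promoters for comparison. Of 12 such genes, 7 had a promoter peak in all 6 libraries, against 62.0% of all protein-coding genes. The adiponectin receptors Adipor1 and Adipor2 were open throughout, at 94.2 to 98.4 and 70.8 to 91.1, as were Cap1, a partner of resistin, and the chemerin receptors Cmklr1 and Ccrl2. Cmklr1 was lower in both brown libraries, at 29.8 and 22.9, than in beige (39.4 and 53.6) and white (36.8 and 60.3). The leptin receptor gene Lepr had a peak in every library except beige 2, at 36.1 or below, and the ERBB receptor gene Erbb4 in every library except beige 1, whereas the apelin receptor gene Aplnr had none. Among 12 other secreted products of fat, 8 were open in all 6 libraries, against the same 62.0%. Angptl4, an inhibitor of lipoprotein lipase, was higher in white, at 59.4 and 36.4, than in beige (23.8 at most) and brown (28.5 and 18.0). Ranked by −log10 q, white (88.8 and 79.5) overlapped beige (79.7 and 80.5). Bmp8b had a peak in the 2 white libraries alone, at 11.1 and 2.59. Itln1 and Serpina12 had none in any library.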

How the data were processed

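Chromatin accessibility was measured by ATAC-seq in 6 libraries, 2 per condition. The authors aligned reads to mm10 with BWA and called peaks per library with MACS2 at a q value under 0.05; the labels also name SAMtools and deepTools. The deposited lists give for each summit a fold enrichment over the local background (a ratio), −log10 p and −log10 q values, and a score, all relative to that library's own reads. The lists hold no read totals. The study gives totals for the beige and white libraries. Total reads were similar, but both beige libraries had a lower mapped share and fewer mapped reads than both white ones. These totals are not used here, and the part of depth in these values was not tested.

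Where a peak had several summits the best by −log10 q stood for it, and peaks were ranked by fold enrichment within its list. Overlapping or touching peaks of the 6 lists were merged. A region's position was the summit of its top peak by −log10 q percentile, set against GENCODE M21 protein-coding genes and their start sites. Sequences came from the RefSeq GRCm38 genome, the same assembly as mm10. Python 3.11.15, pandas 2.3.3, numpy 2.4.6, scipy 1.17.1 and pysam 0.24.0 were used, and merging and classes were tested on simulated data. The text names the 10 members, the fixed lists, and every region held by both libraries of some conditions and neither of the rest; other regions were named after their values were seen. The members and lists were chosen with earlier results of these data known. The labels call the 2 libraries of a condition separate samples without naming separate animals, so the spread between them may be technical. Insulin concentrations in the labels differ from those in the study's methods, and the labels' values are given. One gene with promoter percentiles close to those of a member is not reported here.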

Additional observations from a re-analysis of the deposited data

How the results depend on the processing

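No paired analysis was possible because the results come from no test, and replicate numbers in the labels only name the libraries. Of 157 recomputed counts and means, 114 kept their value within 1.5 times (counts) or within 1 SD (means); the cause of the others was not tested. Leaving out 1 library at a time gave 162 to 169 regions, 85 to 92 open in every remaining library, 7 promoters open in every library each time, and mean promoter percentiles of 62.7 to 64.5 (beige), 64.7 to 67.2 (white) and 69.8 to 72.9 (brown). Over the same omissions the class of beige and brown held 4 to 11 regions, beige and white 1 to 3 (3 without beige 2, 2 without beige 1 or either white library), brown alone 0 to 3 (3 without either brown library), beige alone 3 to 17 (17 without beige 1, 8 without beige 2, 5 without brown 1), white alone 3 to 11 (9 without white 1, 11 without white 2, 5 without either beige library) and white and brown 0 to 1 (1 without brown 2).

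A window of 20 kb held 86 regions, 44 open everywhere, 0 of beige and white and 1 of white alone. A window of 100 kb held 322 regions, 144 open everywhere, 12 of beige and brown, 2 of beige and white, 4 of brown alone, 7 of beige alone and 5 of white alone. Merging only summits within 150 bp gave 6 regions of white alone and 2 of white and brown. At a q value under 0.00001, white alone held 1 region and the promoter means were 66.1, 64.6 and 65.3 (beige, white, brown), so beige ranked highest. Equally long lists gave 68.3 (beige) and 69.2 (white). A promoter distance of 500 bp gave 60.3, 62.3 and 64.9 (beige, white, brown), and 3 kb gave 70.7, 67.1 and 69.8 over 8 genes, so beige again ranked highest. Ranking by −log10 q gave 71.8, 72.7 and 76.3, and using every summit, a choice added after seeing the data, gave 65.8 (beige). With 1 mismatch fewer, 0% of the regions matched the PPAR DR1 element. With n = 2 libraries per condition, the lists limit these results to presence and rank.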
